A study of Rattus norvegicus with 12 samples.

Results

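The transcripts described here are those of chemokines, interleukins and their receptors in the intestinal mucosa of the rat. They were chosen by gene symbol alone: every probe of the array annotated to a gene of the Ccl, Ccr, Cxcl, Cxcr, Cx3c, Xcl, Xcr or Il families, with Cxcl13 left out. The rule took 110 probes of 107 genes, out of 13787 probes of 13336 genes that carry a symbol. Of these, 45 probes of 44 genes were detected (detection p-value under 0.05) on at least 3 of the 12 arrays, against 6813 probes of 6704 genes for the whole array, and only these 45 were tested.

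Male rats of the strain given as Spraque Dawley were either sham operated, with the bowel cut across and rejoined, or lost 75% of the bowel, a model of short bowel syndrome (SBS), with 6 rats assigned to each operation. RNA of the mucosa was read on Illumina RatRef-12 bead arrays, and the arrays analysed were 3 of sham ileum, 4 of SBS ileum, 1 of sham jejunum and 4 of SBS jejunum. All rats had therefore had a bowel operation, and no mucosa of unoperated rats was included. The sources used here give neither the age of the rats nor the time since the operation nor where along the bowel each piece was taken.

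Chemokines are small secreted proteins that set up gradients along which leukocytes move, and the cells read them through receptors that span the membrane and signal through G proteins. Interleukins are cytokines that act on leukocytes and epithelium through receptors assembled from several chains, many of them passing their signal to Janus kinases and STAT factors, while the IL-1 and IL-18 receptors signal to NF-kB. In the gut, the epithelium itself makes several of them, among them Ccl20, Ccl25, Ccl28, Il15 and Il18, and lymphoid follicles and their organizing stroma make others, such as Ccl19.

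The ligands of the receptor Cxcr3 (Cxcl9, Cxcl10 and Cxcl11) and the ligands of Ccr6 and Ccr7 (Ccl20 and Ccl19) are among the chemokines described below. Cxcl11, Cxcl10 and Cxcl9 lie next to each other on rat chromosome 14, with 0 annotated genes between neighbours. The 250 bases before the transcription start of each of these 5 genes are printed 5′ to 3′ from RefSeq (build GRCr8), to show the DNA in front of genes of which several are known to respond to interferon or NF-kB. Capitals mark matches, on either strand, to the interferon-stimulated response element written as GAAANNGAAA or to the NF-kB site written as GGGNNNTTCC. The windows are chr14:16006916-16007165 (plus strand) for Cxcl9, chr14:15988816-15989065 (plus strand) for Cxcl10, chr14:15973478-15973727 (plus strand) for Cxcl11, chr9:91836909-91837158 (plus strand) for Ccl20 and chr5:61761165-61761414 (minus strand) for Ccl19.
Cxcl9: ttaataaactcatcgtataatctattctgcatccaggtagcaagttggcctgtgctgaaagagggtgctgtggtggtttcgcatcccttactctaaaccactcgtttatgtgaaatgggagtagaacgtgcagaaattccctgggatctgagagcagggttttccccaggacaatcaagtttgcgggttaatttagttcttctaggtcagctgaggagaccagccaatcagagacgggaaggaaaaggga
Cxcl10: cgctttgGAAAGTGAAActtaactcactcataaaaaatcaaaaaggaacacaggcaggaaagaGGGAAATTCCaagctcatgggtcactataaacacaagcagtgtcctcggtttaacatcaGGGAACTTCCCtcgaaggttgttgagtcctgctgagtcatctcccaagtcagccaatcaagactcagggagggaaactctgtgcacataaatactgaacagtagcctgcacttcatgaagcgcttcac
Cxcl11: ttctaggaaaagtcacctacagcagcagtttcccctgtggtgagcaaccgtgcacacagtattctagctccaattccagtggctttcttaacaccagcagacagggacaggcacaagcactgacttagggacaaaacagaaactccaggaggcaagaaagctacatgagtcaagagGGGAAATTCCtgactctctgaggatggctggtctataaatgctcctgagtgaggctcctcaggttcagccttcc
Ccl20: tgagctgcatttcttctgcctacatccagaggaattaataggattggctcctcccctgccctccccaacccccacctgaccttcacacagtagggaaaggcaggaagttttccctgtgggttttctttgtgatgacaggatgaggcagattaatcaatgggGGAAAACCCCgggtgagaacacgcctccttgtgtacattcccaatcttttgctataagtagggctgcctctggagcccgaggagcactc
Ccl19: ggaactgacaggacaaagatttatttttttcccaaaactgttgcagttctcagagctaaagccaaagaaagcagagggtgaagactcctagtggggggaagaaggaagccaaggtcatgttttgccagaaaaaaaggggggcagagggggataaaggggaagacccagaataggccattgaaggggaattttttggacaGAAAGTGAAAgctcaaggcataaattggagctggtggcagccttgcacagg

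The Cxcl10 window held 1 match to the interferon-stimulated response element, whose first base lies at -243 from the start, and 3 matches to the NF-kB site, of which those beginning at -128 and -127 overlap on opposite strands. The Cxcl11 and Ccl20 windows held 1 NF-kB match each, at -74 and -89, and the Ccl19 window held 1 match to the interferon-stimulated response element at -51. The Cxcl9 window held 0 matches to either motif as written, which says only that these letters are not in these 250 bases. Of the 44 measured genes, 34 had such a window in the RefSeq table (35 windows in all). The interferon-stimulated response element was found in 3 of the 35 windows (8.57%: Ccl19, Cxcl10 and Il36b) and in 3.41% of the 33469 windows of all genes. The NF-kB site was found in 6 of the 35 (17.1%: Ccl20, Ccl6, Ccr3, Cxcl10, Cxcl11 and Cxcl2) and in 4.53% of all windows. A match of letters is a description and not a binding site, and no binding was measured.

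Between 7041 and 8821 of 22517 probes were detected per array, and the member probes detected per array numbered 42 to 47 in sham ileum, 41 on the sham jejunal array, 32 to 39 in SBS ileum and 28 to 37 in SBS jejunum. SBS ileum 1 and 4 had the lowest summed intensities of stromal and of smooth muscle markers, given below. 2 of the SBS jejunal arrays stood apart from the rest in pancreatic or ileal transcripts. SBS jejunum 1 carried exocrine pancreatic transcripts, with a log2 level of 9.12 for the lipase Pnlip against at most 5.30 on the other 11 arrays. SBS jejunum 4 carried the ileal bile acid-binding protein Fabp6 at 13.56, against 5.96 to 7.15 on the other SBS jejunal arrays and 14.22 to 14.43 in ileum, and the sham jejunal array lay between at 11.50. Epithelial markers were measured for 10 of 10 genes on the array, with summed intensities of 36000 to 45400 per array. Of 10 granulocyte markers on the array, 0 passed the detection filter and 9 were detected on 0 arrays, S100a8 and S100a9 among them.

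Throughout, a level is the background-corrected, quantile-normalized log2 intensity of a probe, and levels of different probes are not set against each other. The signals of the members were mostly dim: the median level over the 45 probes was 5.28, against 5.77 over the 9137 probes tested, and 27 of the 45 had a mean under 5.5. On all 12 arrays 22 of the probes were detected, and on 3 to 11 arrays the other 23. Of the remaining member probes, 15 were detected on 1 or 2 arrays and 50 on 0. Detected on 2 arrays were Ccl2, Ccl21, Ccl27, Cxcl17, Il5, Il7 and Il9r, just short of the detection rule, with levels of 4.31 to 5.09, and on 1 array Cxcl1, Ccr10, Cx3cr1, Cxcr3, Il18bp, Il23a, Il1rl1 and Il3ra. Just inside the rule was Ccr2, the receptor of monocyte chemokines, detected on 3 arrays with levels of 4.40 to 4.96. By role, 8 of 17 CC chemokine genes were measured, 7 of 12 other chemokines, 8 of 17 chemokine receptors, 9 of 29 interleukins and binding proteins, and 12 of 32 interleukin receptor chains. Roles were read from the symbol, so Il22ra2, which encodes a soluble binding protein, is counted with the receptor chains. Ccl19 and Cxcr4 passed the filter only through the sham arrays and Il1a only through the SBS jejunal arrays, and Il16 was detected on 2 arrays outside sham ileum, so that the differences of these 4 genes are in part set by the filter, and no count over the measured members is used as evidence about the families.

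**Figure D1:**
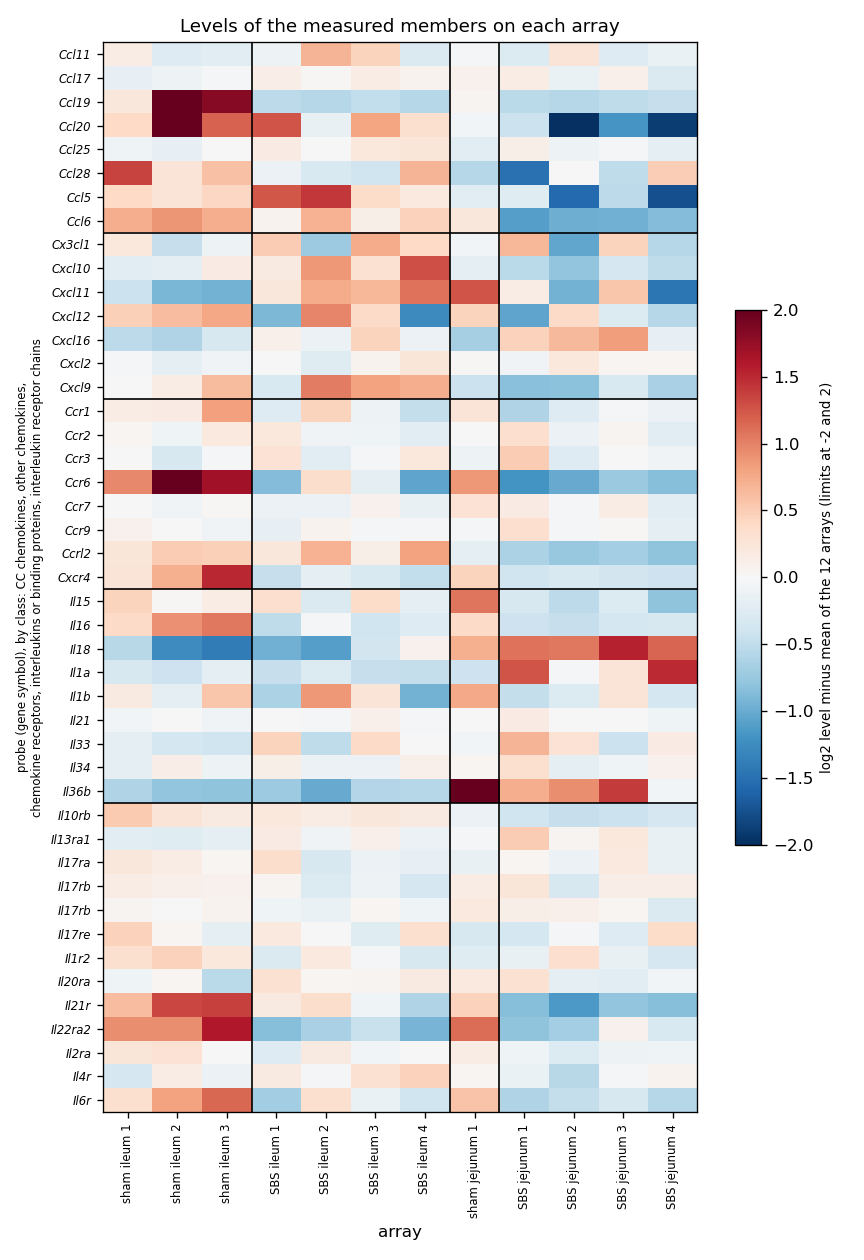
Heat map of the 45 measured member probes (rows, grouped by role) on the 12 arrays (columns). Colour shows the log2 level minus that probe's mean over the 12 arrays. Ccr6, Ccl19, Il22ra2, Il21r and Cxcr4 are higher on the 4 sham arrays, and Il18 is highest on the 5 jejunal arrays.

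Resection in the ileum was followed by lower levels of 7 of the 45 members and higher levels of 0 (adjusted p under 0.05 in limma), where 2.94% of all probes tested were called, 2.29% as lower and 0.657% as higher. Ccl19, the chemokine that guides cells bearing Ccr7 into lymphoid tissue, fell, as did the receptors Ccr6 and Cxcr4 and the CD4-binding cytokine Il16. Il22ra2, Il21r and Il6r, all named for interleukin receptors, fell as well. The fitted log2 differences of the 7 ran from -2.0 for Ccr6 to -0.98 for Il6r. By role, 1 of 8 CC chemokines fell, 0 of 7 other chemokines, 2 of 8 chemokine receptors, 1 of 9 interleukins and 3 of 13 probes for receptor chains. The median log2 difference was -0.06 over the 45 members and 0.03 over all probes tested, with 20 members positive and 25 negative.

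Among the ligands, Ccl19 read 5.13, 7.06 and 6.73 on sham ileum 1 to 3. In SBS ileum it read 4.40, 4.33, 4.41 and 4.34, undetected on all 4 arrays, so the groups did not overlap. The mean log2 level fell by 1.94 ± 0.34 (SE, adjusted p = 0.0115 in limma), which against the lowest detected level of each array is at least 2.93-fold lower. Such bounds set an undetected value to the lowest level among detected probes of its array and hold for the background correction used here. Sham ileum 1 was the lowest of the sham ileal arrays for Ccl19, at 5.13, and the sham jejunal array of the rat with the same code read 4.96.

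Ccr6, the receptor of Ccl20 on B cells, dendritic cells and some T cells, read 6.57, 7.66 and 7.29 in sham ileum. After resection it read 4.74, 5.95, 5.43 and 4.56 and was detected on 2 of 4 arrays. Every SBS ileal array lay below every sham one, and the level fell by 2.0 ± 0.33 (SE, adjusted p = 0.00915 in limma), a fitted fold of 4.00, from 7.17 ± 0.56 (SD, n = 3) to 5.17 ± 0.64 (SD, n = 4). Its ligand Ccl20 was detected on every array, at 7.89, 9.84 and 8.66 in sham ileum and 8.74, 7.33, 8.28 and 7.81 in SBS ileum. These ranges overlapped and the difference of -0.76 ± 0.54 (SE) did not pass the test (adjusted p = 0.531 in limma). Cxcr4, the receptor of Cxcl12, read 5.03, 5.48 and 6.28 in sham ileum and 4.31, 4.58, 4.46 and 4.28 in SBS ileum, where it was undetected on 4 of 4 arrays. It fell by 1.19 ± 0.23 (SE, adjusted p = 0.0184 in limma), at least 1.79-fold. Its ligand Cxcl12 differed by -0.83 ± 0.48 (SE, adjusted p = 0.432 in limma), with sham arrays at 6.58 to 6.88 and SBS ileal arrays spread from 4.84 to 7.08. The receptor of Ccl19, Ccr7, stood at 6.15, 6.10 and 6.18 in sham ileum and at 6.02 to 6.24 in SBS ileum, a difference of -0.06 ± 0.12 (SE) that did not pass the test.

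Il22ra2, which encodes the soluble binding protein that keeps IL-22 from its receptor, read 6.12, 6.12 and 6.80 in sham ileum. The SBS ileal arrays read 4.34, 4.55, 4.75 and 4.25, all undetected and all below the sham arrays. The level fell by 1.87 ± 0.24 (SE, adjusted p = 0.00391 in limma), at least 3.01-fold. Il21r, the receptor through which IL-21 acts on B, T and NK cells, read 6.21, 6.93 and 6.96 in sham ileum and 5.78, 5.94, 5.5 and 4.99 in SBS ileum. These groups did not overlap, and Il21r fell by 1.15 ± 0.24 (SE, adjusted p = 0.0256 in limma). Il6r, the ligand-binding chain of the IL-6 receptor, read 5.47, 5.95 and 6.30 in sham ileum and 4.46, 5.47, 5.01 and 4.75 in SBS ileum. Its lowest sham array and its highest SBS array met at 5.47, and the fall of 0.98 ± 0.24 (SE) was the nearest to the threshold (adjusted p = 0.0491 in limma). Il16 read 5.17, 5.69 and 5.83 against 4.27, 4.74, 4.38 and 4.52, with no overlap, and fell by 1.08 ± 0.17 (SE, adjusted p = 0.0076 in limma). In SBS ileum Il16 was detected on 1 of 4 arrays and Ccr6 and Il6r on 2 of 4 each, so that these lower levels and the fold of Ccr6 rest in part on background. Il16, like Ccl19 and Cxcr4, passed the detection filter through the group in which it was higher.

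**Figure D2:**
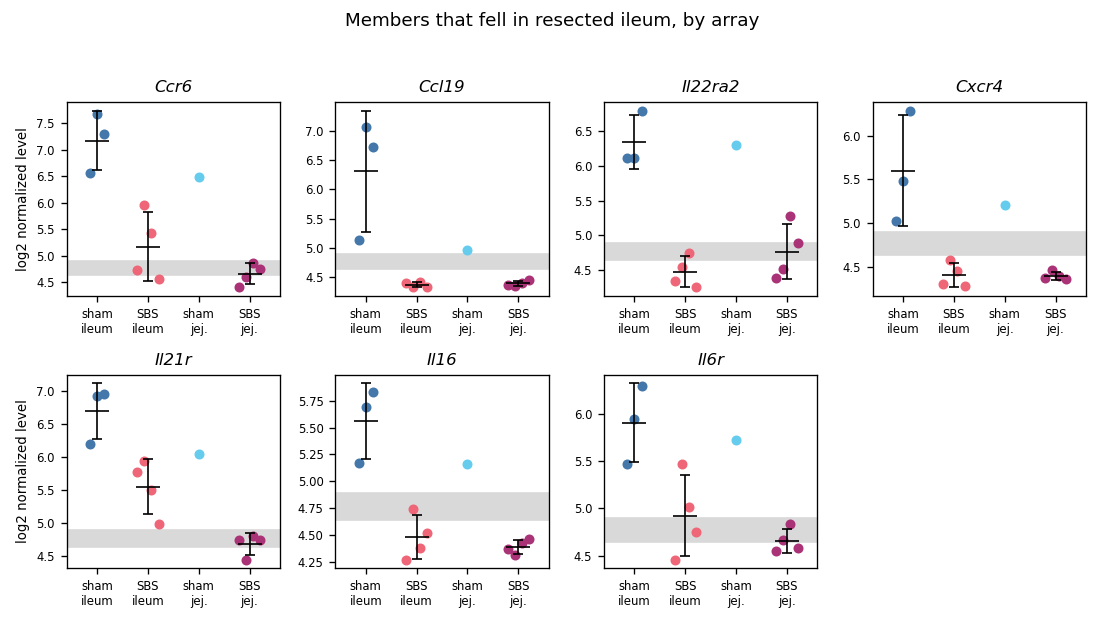
Log2 level of the 7 members called in the ileal comparison, by group. Points are arrays, bars are mean ± SD (the sham jejunum has 1 array and no SD), and the grey band spans the lowest detected levels of the arrays. Sham arrays lie above the SBS ileal arrays for all but Il6r, whose groups meet at 5.47.

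Most calls in the ileum were lost when sham ileum 2 or 3 was left out. Without sham ileum 2 the count fell to 1 of 45 and without sham ileum 3 also to 1 of 45, Il22ra2 both times, with adjusted p of 0.0591 to 0.184 and 0.0557 to 0.259 for the other 6, all of them still negative. In these fits the log2 difference was -1.75 and -1.94 for Ccr6 and -1.25 and -0.85 for Cxcr4. Cxcr4 also missed the threshold without SBS ileum 1 (adjusted p = 0.0558) and Il21r without SBS ileum 3 (adjusted p = 0.0599), while Il6r missed it in 9 of the 12 fits that left out 1 array (0.0525 to 0.259). Without any background correction 6 of the 7 were called, Il6r being lost at adjusted p = 0.0681, and all log2 differences were smaller, at -1.30 for Ccr6, -1.19 for Ccl19, -1.12 for Il22ra2, -0.73 for Il21r, -0.70 for Cxcr4, -0.61 for Il16 and -0.54 for Il6r. Those of Ccl19, Il22ra2 and Cxcr4 then lay below the bounds given above. B and plasma cell markers moved with these genes: 4 of 5 measured markers (Cd79b, Ms4a1, Cr2 and Mzb1) fell, where 2.29% of all probes were called lower. Ms4a1 and Cr2 were detected on 5 arrays each, largely the sham ones, so their falls are in part set by the detection filter. The summed linear intensity of the 5 markers was 198 to 427 in sham ileum, 36.8 to 93.5 in SBS ileum, 187 on the sham jejunal array and 45.2 to 56.3 in SBS jejunum. The part of these cells in the result was not tested, and in a bulk sample fewer cells of a type and less RNA per cell cannot be told apart. Of 12 measured T and NK cell markers, 0 were called, 6 differences were positive and 6 negative with a median of -0.00021, and their sum was 1620 to 2400 in sham and 2440 to 3420 in SBS ileum. Of 7 macrophage and dendritic cell markers 0 were called, with sums of 576 to 846 and 248 to 1100. Of 5 stromal and endothelial and 3 smooth muscle markers 0 were called. On SBS ileum 1 to 4 the stromal sum was 132, 900, 523 and 71.2, against 391 to 593 in sham ileum. The smooth muscle sum was 54.2, 359, 306 and 29.5, against 219 to 260. Ccr6, Il6r, Cxcr4 and Il22ra2 read lowest on SBS ileum 1 and 4, and Ccl19, Il21r and Il16 did not. Cxcr4, Il22ra2 and Ccl19 were undetected on all 4 SBS ileal arrays, so their order there is one of background. Ccr6 and Il6r were detected on only 2 of 4 and Il16 on 1 of 4, so theirs rests in part on background. The part of tissue content in these levels was not tested.

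The genes Cxcl11, Cxcl10 and Cxcl16 were higher on every SBS ileal array than on every sham ileal one and did not pass the test. Cxcl11 and Cxcl10 attract activated T and NK cells through Cxcr3, and Cxcl16 is a membrane-bound ligand of Cxcr6. Cxcl11 read 6.26, 5.77 and 5.75 in sham and 6.91, 7.43, 7.36 and 7.77 in SBS ileum, a difference of 1.44 ± 0.41 (SE, adjusted p = 0.0859 in limma). Cxcl10 read 5.15, 5.18 and 5.53 against 5.54, 6.23, 5.67 and 6.66, a difference of 0.74 ± 0.24 (SE, adjusted p = 0.133 in limma). Cxcl16 read 6.71, 6.63 and 6.92 against 7.34, 7.12, 7.68 and 7.13, a difference of 0.56 ± 0.22 (SE, adjusted p = 0.22 in limma). In all, 6 members were higher and 9 were lower without overlap, where 10.7% and 8.43% of all probes were. Cxcl11 lay past the threshold when only the 7 ileal arrays were fitted (adjusted p = 0.029 in limma) and without SBS jejunum 4 (adjusted p = 0.0363 in limma), with the same log2 difference. The fit of the 7 ileal arrays alone lost Cxcr4, Il21r and Il6r (adjusted p = 0.0557, 0.0608 and 0.0884 in limma).

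In the jejunum, resection was followed by lower levels of 2 of the 45 members, Il15 and Ccl6, and higher levels of 0, where 1.47% of all probes were called, 0.832% as lower and 0.635% as higher. This comparison has a single sham array, whose spread the model takes to be that of the other 3 groups. Il15, the cytokine that maintains intraepithelial and memory T cells and NK cells, read 7.60 on the sham array and 6.21, 6.00, 6.26 and 5.72 in SBS jejunum. It fell by 1.55 ± 0.29 (SE, adjusted p = 0.0227 in limma), a fitted fold of 2.93, and in ileum it differed by -0.15 ± 0.20 (SE, adjusted p = 0.75 in limma). Ccl6, a CC chemokine of rodents, read 5.70 on the sham array and 4.37, 4.49, 4.51 and 4.61 in SBS jejunum, undetected on all 4. It fell by 1.21 ± 0.23 (SE, adjusted p = 0.0233 in limma), at least 1.91-fold. When only the 5 jejunal arrays were fitted 0 members were called (adjusted p = 0.115 in limma for both genes), and without background correction Ccl6 missed the threshold at 0.0564 with a difference of -0.65, below the bound given. Ccl6 was also at the threshold without SBS jejunum 3 (adjusted p = 0.05) and without SBS jejunum 1 and 4 together (0.0502).

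The other members with large jejunal differences did not pass. Ccr6 stood at 6.48 on the sham array and at 4.41, 4.60, 4.87 and 4.76 in SBS jejunum, a difference of -1.83 ± 0.48 (SE, adjusted p = 0.102 in limma). Il22ra2 stood at 6.30 against 4.39, 4.51, 5.27 and 4.89, a difference of -1.54 ± 0.34 (SE, adjusted p = 0.0536 in limma). Il21r stood at 6.05 against 4.44 to 4.80, a difference of -1.37 ± 0.35 (SE, adjusted p = 0.0925 in limma). Ccr6, Il22ra2 and Il21r were thus lower on each SBS jejunal array than on the sham one. So was Il36b, at 7.58 against 6.20, 6.39, 6.86 and 5.41, a difference of -1.37. Il6r was lower on each as well, with a difference of -1.07, and neither gene was called. With 1 sham array the operation, that rat and the place along the bowel cannot be told apart. The sum of 6 ileal markers was 5690 on the sham array and 1800, 1140, 1230 and 14200 on SBS jejunum 1 to 4. The sum of 5 jejunal markers was 8620 against 4330 to 7670. With the animal as a random block Il22ra2 and Ccr6 passed (adjusted p = 0.0277 and 0.0498 in limma). Il22ra2 also passed without sham ileum 3 (0.0445) or SBS jejunum 3 (0.0316), and Il21r without SBS ileum 4 (0.046), all adjusted p in limma. Cxcl11 stood at 7.95 against 6.84, 5.75, 7.23 and 5.24, a difference of -1.68 ± 0.60 (SE, adjusted p = 0.245 in limma). Higher on all 4 SBS arrays than on the sham array were Cxcl16 (6.57 against 7.70, 7.88, 8.08 and 7.07, a difference of 1.11 ± 0.33, adjusted p = 0.144), Il1a (1.16 ± 0.45, adjusted p = 0.295) and Il18 (0.49 ± 0.42, adjusted p = 0.762), all in limma. Cxcl16 passed without SBS jejunum 4, the array with high Fabp6 (difference 1.32, adjusted p = 0.0219 in limma). The median log2 difference was -0.22 over the members and 0.01 over all probes, with 29 of 45 members negative. 4 members were higher and 22 lower without overlap, where 21.2% and 19.9% of all probes were. Beside Cxcl16, Il1a and Il18, the higher ones included Ccl25, at 5.45 on the sham array and 5.48 to 5.77 in SBS jejunum.

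Within SBS rats, 11 of the 45 members differed between jejunum and ileum, where 9.29% of all probes were called, 4.39% as lower and 4.9% as higher. Lower in jejunum were the chemokines Ccl5, Ccl6, Ccl20, Cxcl9 and Cxcl10, the atypical receptor Ccrl2, and the receptor chains Il10rb and Il21r. Higher in jejunum were 3 members of the IL-1 family, Il18, Il1a and Il36b. By role, 3 of 8 CC chemokines, 2 of 7 other chemokines, 1 of 8 chemokine receptors and 2 of 13 receptor-chain probes were lower, and 3 of 9 interleukins were higher. The SBS arrays of both regions also enter the resection comparisons above, so these comparisons are not independent.

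Ccl5, which draws T cells and other leukocytes, read 11.09, 11.26, 10.20 and 10.04 in SBS ileum and 9.60, 8.29, 9.31 and 8.08 in SBS jejunum. Every jejunal array lay below every ileal one, and the level was lower by 1.82 ± 0.36 (SE, adjusted p = 0.00712 in limma), a fitted fold of 3.54. Ccl20 read 8.74, 7.33, 8.28 and 7.81 in SBS ileum and 7.06, 4.91, 6.31 and 5.58 in SBS jejunum. Again the regions did not overlap, and Ccl20 differed by -2.08 ± 0.50 (SE, adjusted p = 0.0211 in limma), a fitted 4.22-fold lower level. Ccl6 read 5.54, 6.17, 5.60 and 5.94 in SBS ileum and was undetected in SBS jejunum at 4.37 to 4.61, lower by 1.32 ± 0.14 (SE, adjusted p = 0.000152 in limma) and at least 2.06-fold. Ccrl2, a receptor that binds chemerin without signalling through G proteins, read 5.46, 5.92, 5.35 and 6.03 in SBS ileum and 4.42 to 4.59, undetected, in SBS jejunum. It was lower by 1.18 ± 0.16 (SE, adjusted p = 0.00054 in limma), at least 1.88-fold.

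Cxcl10 read 5.54, 6.23, 5.67 and 6.66 in SBS ileum and 4.83, 4.57, 5.03 and 4.85 in SBS jejunum, without overlap, and was lower by 1.21 ± 0.23 (SE, adjusted p = 0.00536 in limma). Cxcl9 read 5.02, 6.35, 6.14 and 6.06 against 4.50, 4.51, 5.02 and 4.68, and was lower by 1.21 ± 0.26 (SE, adjusted p = 0.0127 in limma). The 2 regions met at 5.02 for Cxcl9, on SBS ileum 1 and SBS jejunum 3. Cxcl10 and Cxcl9 were each detected on 2 of 4 SBS jejunal arrays, so their jejunal levels rest in part on background. Cxcl11, their neighbour on chromosome 14, read 6.91, 7.43, 7.36 and 7.77 against 6.84, 5.75, 7.23 and 5.24, and its difference of -1.10 ± 0.38 (SE) did not pass (adjusted p = 0.101 in limma). With the animal as a random block over all arrays Cxcl11 passed (adjusted p = 0.0454 in limma), as it did without SBS jejunum 3 (difference -1.42, adjusted p = 0.0293 in limma), and with the animal as a block on the 8 SBS arrays it did not (adjusted p = 0.0774 in limma). Il15 differed by -0.54 ± 0.18 (SE, adjusted p = 0.0992 in limma) and passed with the animal as a block (adjusted p = 0.021 in limma).

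Il18, an IL-1 family cytokine held as a precursor in epithelial cells, read 5.83, 5.69, 6.43 and 6.89 in SBS ileum and 7.88, 7.85, 8.34 and 7.96 in SBS jejunum. It was higher in jejunum by 1.80 ± 0.26 (SE, adjusted p = 0.00113 in limma), a fitted fold of 3.48, and SBS jejunum 4, with its high Fabp6, read 7.96 like the others. In sham rats the only jejunal array read 7.52 and the ileal arrays 6.24, 5.55 and 5.41. Il36b, a member of the IL-1 family active at epithelial surfaces, read 4.74, 4.46, 4.88 and 4.90 in SBS ileum and 6.20, 6.39, 6.86 and 5.41 in SBS jejunum. It was higher by 1.47 ± 0.25 (SE, adjusted p = 0.00261 in limma), a fitted fold of 2.78, with the ileal level resting in part on background since 2 of 4 arrays detected it. Il1a, the alarmin released by damaged cells, was undetected in SBS ileum at 4.33 to 4.52 and read 6.06, 4.78, 5.06 and 6.28 in SBS jejunum. It was higher by 1.16 ± 0.28 (SE, adjusted p = 0.0231 in limma), at least 1.73-fold, and was undetected on the sham arrays of both regions. Without SBS jejunum 1, the array with pancreatic transcripts, the difference in Il1a was 0.99 (adjusted p = 0.0544 in limma), and without SBS jejunum 1 and 4 together it was 0.54 (adjusted p = 0.0393 in limma). The call on Il1a was also lost without SBS ileum 1, 3 or 4 (adjusted p = 0.0501, 0.0625 and 0.0522 in limma), where the difference stayed at 1.14 to 1.15.

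Among the receptor chains, Il10rb, shared by the receptors of IL-10 and IL-22, read 9.56, 9.50, 9.57 and 9.53 in SBS ileum and 8.95, 8.88, 8.91 and 9.0 in SBS jejunum. The spread within each region was small, at an SD of 0.03 and 0.05, and the level was lower in jejunum by 0.60 ± 0.10 (SE, adjusted p = 0.00329 in limma). Under median scaling in place of quantile normalization this call was lost (adjusted p = 0.1), together with those of Il1a (0.0725) and Il21r (0.0757). Il1a was also lost with a background offset of 50 (0.0574), with no filter on dim probes (0.0854) and when the SBS arrays alone were fitted (0.0574), and Il21r with the offset of 50 (0.0824) and with no filter (0.091), all adjusted p in limma. With no filter Ccl20 and Cxcl9 were lost as well (adjusted p = 0.092 and 0.0515 in limma). Leaving out both arrays of rat 36 lost Il1a and Il21r (adjusted p = 0.095 and 0.0982 in limma). Il21r read 5.78, 5.94, 5.5 and 4.99 against 4.74, 4.44, 4.80 and 4.74, detected on 1 SBS jejunal array, and was lower by 0.87 ± 0.22 (SE, adjusted p = 0.0289 in limma). Its call was lost when SBS ileum 1, 2 or 3 or SBS jejunum 2 or 3 was left out, with adjusted p from 0.0551 to 0.0842. Ccl20 likewise missed the threshold without SBS ileum 1 (adjusted p = 0.0572), SBS ileum 3 (0.0645) or SBS jejunum 2 (0.0602), with differences of -1.85, -2.0 and -1.73. Without both SBS jejunal arrays that stood apart, Cxcl9 and Il21r were lost (adjusted p = 0.0815 and 0.0867 in limma). The count of calls was 8 to 12 when each array in turn was left out. Without background correction 10 of the 11 were still called, all but Il21r, and the differences of the dimmer genes were smaller, at -0.72 for Ccl6, -0.64 for Ccrl2, -0.67 for Cxcl10 and Cxcl9, 0.84 for Il36b and 0.70 for Il1a. Those of Ccl6, Ccrl2 and Il1a then lay below the bounds given above.

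**Figure D3:**
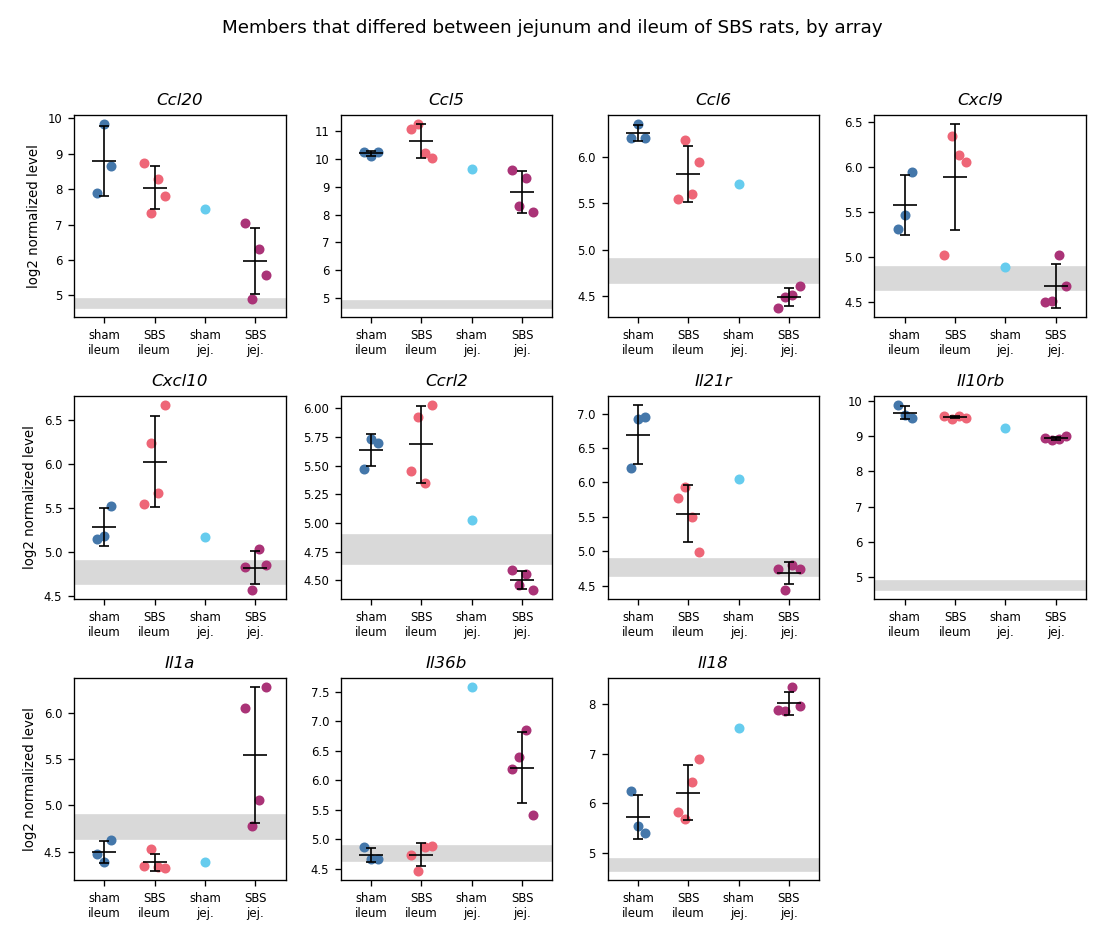
Log2 level of the 11 members that differed between SBS jejunum and SBS ileum, by group. Points are arrays, bars are mean ± SD, and the grey band spans the lowest detected levels of the arrays. The means of Il18, Il36b and Il1a lie higher in SBS jejunum and those of the other 8 lower.

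The T and NK cell markers moved with Ccl5 and the Cxcr3 ligands in this comparison: 8 of 12 measured markers were lower in SBS jejunum, among them Cd3d, Cd8a and Gzma, where 4.39% of all probes were. The difference of Cd3g, another CD3 chain, was the only positive 1 and was not called. The summed intensity of the 12 markers was 811 to 1660 in SBS jejunum against 2440 to 3420 in SBS ileum. The part of these cells in the result was not tested. Of 5 B and plasma cell markers and of 7 macrophage and dendritic cell markers, 0 were called, and of 10 epithelial markers 1 was lower. The median log2 difference was -0.11 over the 45 members and -0.01 over all probes. Without overlap of arrays 3 members were higher and 7 lower in SBS jejunum, where 6.11% and 6.42% of all probes were.

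The resection effect (SBS minus sham) was compared between the regions as an interaction, jejunum minus ileum. None of the 45 members was called (0.197% of all probes were), 7 had an unadjusted p under 0.05 in limma, and 5.49% of all probes did. The interaction was -3.12 ± 0.72 (SE, adjusted p = 0.196 in limma) for Cxcl11, whose levels were higher on all SBS arrays than on the sham arrays in ileum and lower on all SBS arrays than on the sham array in jejunum. For Il15 it was -1.40 ± 0.35 (SE, adjusted p = 0.244 in limma), for Il36b -1.38 and for Cxcl10 -1.09, with adjusted p of 0.595 and 0.764. Il36b stood at 7.58 on the sham jejunal array and at 4.86, 4.67 and 4.67 on the sham ileal ones. The interactions of Ccl6, Il1a and Ccl19 were -0.77, 1.27 and 1.37, with adjusted p of 0.667, 0.853 and 0.881. Without sham ileum 1, the array with the lowest ileal Ccl19 among the shams, the interaction of Ccl19 was 1.96 and passed (adjusted p = 0.00508 in limma). All of these rest on 1 sham jejunal array, and the median over the members was -0.08.

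**Figure D4:**
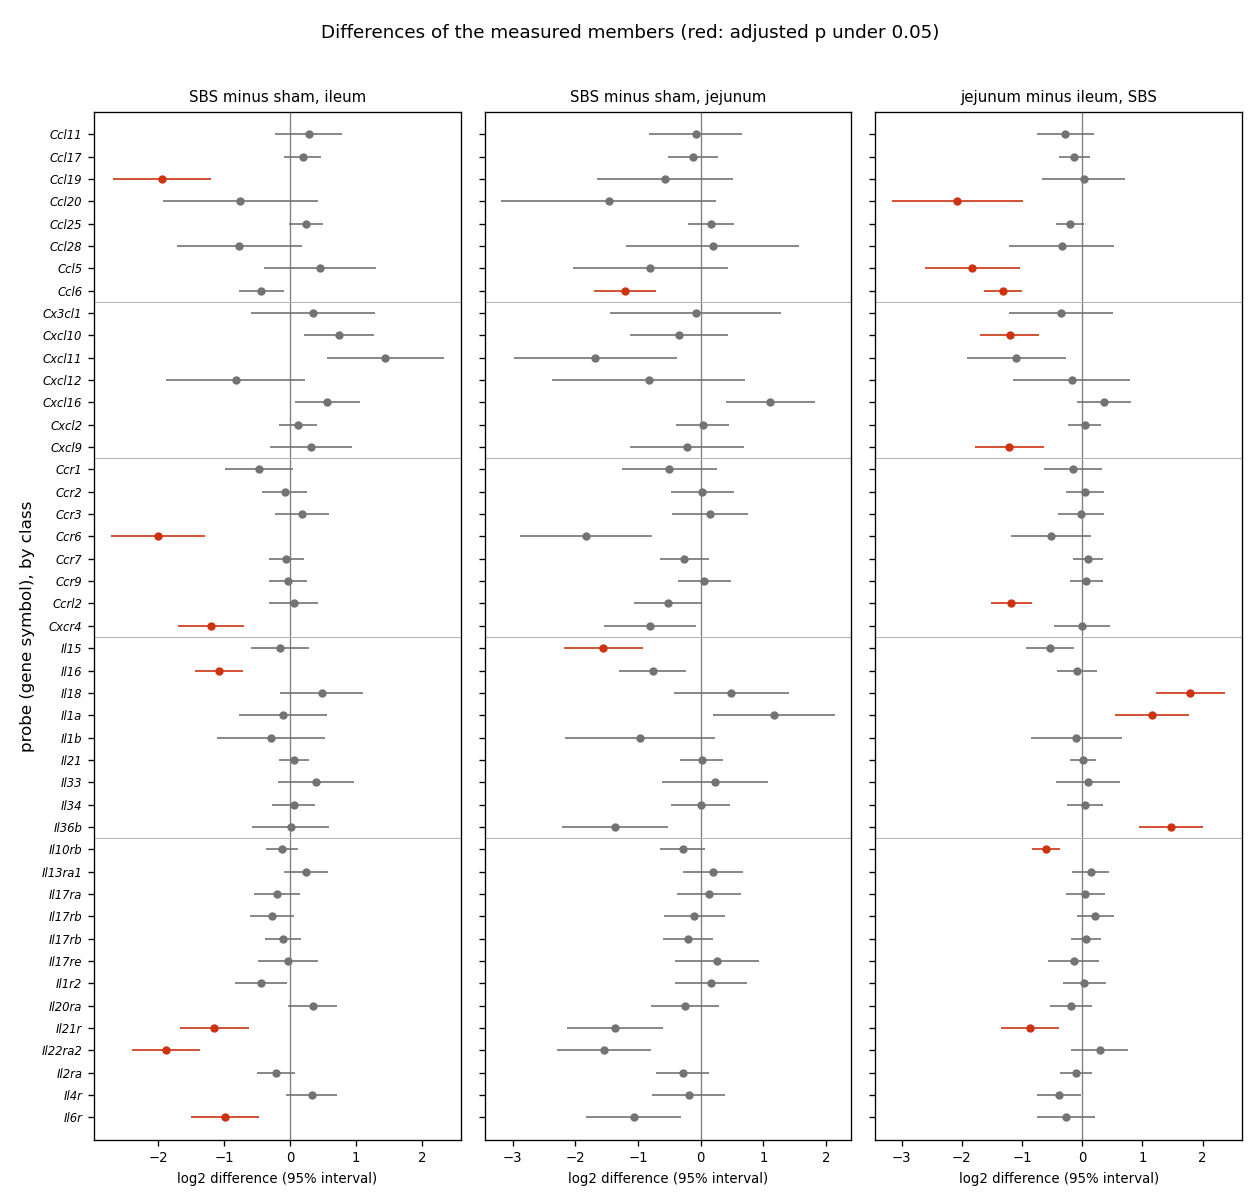
Log2 difference of each of the 45 member probes in the ileal resection, jejunal resection and SBS jejunum minus SBS ileum comparisons. Points are fitted differences and lines their 95% intervals, with adjusted p under 0.05 in red. In ileum all 7 called members lie below 0, in jejunum both do, and between regions 8 lie below and 3 above.

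In all, 18 members were called in at least 1 comparison and 27 probes of 26 genes in none. Beside Cxcl11, Cxcl16, Cxcl12 and Ccr7, these included several chemokines that the small bowel is known for. Ccl25, which draws gut-homing T cells through Ccr9, stood between 5.45 and 5.90 on all 12 arrays, with a difference of 0.24 ± 0.12 (SE, adjusted p = 0.329 in limma) in ileum, and Ccr9 itself read 4.58 to 5.09. Ccl28, the mucosal ligand of Ccr10 and Ccr3, read 7.35, 6.25 and 6.58 in sham ileum and 5.87, 5.69, 5.60 and 6.68 in SBS ileum, with overlap and a difference of -0.77 ± 0.43 (SE, adjusted p = 0.411 in limma). Cx3cl1, the membrane-bound ligand of Cx3cr1, read 7.85 to 8.52 in sham ileum, 7.59 to 9.05 in SBS ileum, 8.26 on the sham jejunal array and 7.26 to 8.97 in SBS jejunum, so that its groups overlapped throughout. Cxcl2, a neutrophil chemokine, was detected on 5 arrays at no more than 4.98. The eosinophil chemokine Ccl11 was detected on 5 arrays, with 5.45 on SBS ileum 2 as its highest level, and the receptors Ccr1 and Ccr3 and the Ccr4 ligand Ccl17 differed by 0.50 or less in each group comparison.

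Among interleukins, Il1b, the main secreted product of the inflammasome, read 6.72, 6.34 and 7.08 in sham ileum, 5.91, 7.39, 6.79 and 5.59 in SBS ileum, 7.29 on the sham jejunal array and 6.06 to 6.78 in SBS jejunum. No comparison passed, and its largest difference was -0.97 ± 0.55 (SE, adjusted p = 0.551 in limma), in jejunum. Il33, the nuclear alarmin that binds Il1rl1, read 5.86 to 6.07 in sham ileum and 5.75 to 6.70 in SBS ileum, with overlap. Its second probe was detected on 0 arrays, as was the second probe of Cxcl16. Il21 and Il34, a ligand of the receptor Csf1r, stayed within 4.88 to 5.12 and 4.79 to 5.31 over all arrays. Of the receptor chains, Il4r, Il13ra1, Il17ra, Il17re, Il20ra, the decoy receptor Il1r2 and the IL-2 receptor chain Il2ra were called in no comparison. Their ileal differences ran from -0.44 ± 0.18 (SE, adjusted p = 0.231 in limma) for Il1r2 to 0.34 ± 0.17 (SE, adjusted p = 0.343 in limma) for Il20ra. Both probes of Il17rb, a receptor chain for IL-25, were detected on all 12 arrays and gave ileal differences of -0.28 and -0.11.

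Genes that relay these signals were taken from lists drawn up with earlier results of these data known, and their counts stand beside 2.29% of all probes called lower in ileum and 4.39% between the SBS regions. Of 11 measured genes of the JAK-STAT relay, 1 fell in ileum, Jak3, the kinase bound to the common cytokine receptor gamma chain (-1.14 ± 0.24 (SE), adjusted p = 0.0297 in limma), and it was also lower in SBS jejunum than in SBS ileum (-1.28 ± 0.23 (SE), adjusted p = 0.00371 in limma). Of 15 measured genes downstream of the IL-1 and Toll-like receptors, 0 were called in ileum or jejunum. Between the SBS regions 2 of them were lower in jejunum, Nfkbia, the NF-kB inhibitor that NF-kB itself induces (-1.13, adjusted p = 0.000316 in limma), and Nfkb2, which encodes the p100 precursor (-0.86, adjusted p = 0.00116 in limma). Of 9 measured genes that act behind chemokine receptors, 2 fell in ileum: Rac2, a GTPase of blood cells that drives migration (-1.40 ± 0.21 (SE), adjusted p = 0.00674 in limma), and Vav1, its exchange factor (-0.75 ± 0.18 (SE), adjusted p = 0.0469 in limma). Of 4 measured genes that scavenge or trim chemokines, 0 were called in any comparison. Of 4 other measured cytokines 1 fell in ileum, Ltb, the membrane-bound lymphotoxin that organizes lymphoid follicles (-1.19 ± 0.25 (SE), adjusted p = 0.0276 in limma). The median ileal difference of these lists was 0.08, 0.11, -0.0011, -0.11 and -0.46 in the order given, beside 0.03 over all probes.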

How the data were processed

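Total RNA of 12 mucosal samples was amplified from 200 ng and hybridized to bead arrays, per the labels' protocols, which name both Rat Quad and RatRef-12 chips; the latter is in the labelling protocol. The deposited signal table holds each probe's mean bead intensity, assumed to be linear and without scaling across arrays, beside a deposited detection p-value. The deposited series matrix holds log2 values; they equal the quantile-normalized log2 signals without background correction within 5e-06, with a median of 5.86 on each array. Which software read the scans, and how it treated background, is not given in the sources used.

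Intensities were background corrected with normexp estimated from the detection p-values (offset 16), quantile normalized and log2 transformed (limma 3.58.1, R 4.3.3). Probes with a detection p under 0.05 on 3 or more arrays (9137) were fitted with 1 mean per group over all 12 arrays (lmFit, eBayes), with two-sided p-values adjusted by Benjamini-Hochberg over these probes and called under 0.05. All 110 member probes matched the RefSeq gene table by Entrez identifier, and 0 symbols were updated. The fit was tested on simulated data. The number of arrays limits the precision.

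The members and the lists were chosen with earlier results of these data known. Every measured member is named. Values are given in full for called members, for the 3 members per direction with the largest difference and no overlap between groups in each comparison, and for the member with the highest mean in each class; Ccl28, Il1b and others with values beyond this rule were added after their values were seen. The codes in the sample labels were taken to name rats, an inference; if samples are not separate animals, p-values measure technical spread only. By these codes SBS ileum and SBS jejunum came from the same 4 rats, and deviations of same-coded arrays from their group means correlated at 0.66, 0.467, 0.193 and 0.444. Alternatives covered background correction, normalization, the filter, array weights, blocks and arrays left out.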

Additional observations from a re-analysis of the deposited data

Results flagged for a closer look

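In 3 of 44 groups of 4 arrays tested among the members given in full, 1 array lay far from the other 3 of its group, where chance gives about 1 group in 20, or 2.2 of 44. Ccr7 stood at 6.243 on SBS ileum 3 and at 6.019 to 6.044 on the other SBS ileal arrays. Il1a stood at 4.524 on SBS ileum 2 and at 4.326 to 4.342 on the others, all of them undetected. Il21r stood at 4.443 on SBS jejunum 2 and at 4.742 to 4.798 on the other SBS jejunal arrays.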

How the results depend on the processing

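No called difference changed sign under the alternatives run, but the ileal and interaction medians, which lie near 0, did. In ileum the 7 calls became 4 with no filter on dim probes, 4 with the replicate number as a block on the 7 ileal arrays (1 rose and 3 fell; the same-numbered arrays share only a number, with deviations correlating at 0.208, -0.0804 and 0.0338), 11 with array weights (3 rose and 8 fell) and 4 without both arrays of rat 36, an alternative chosen after seeing the data. Leaving out 1 array at a time gave 1 to 7 calls. The ileal median of -0.0572 became -0.132 with median scaling and 0.00216 with no filter, and ran from -0.0796 to -0.0269 with 1 array left out. In jejunum the 2 calls became 1 with the series matrix, 1 with an offset of 50, 1 with median scaling, 0 with no filter, 0 with only the jejunal arrays, 4 with array weights and 4 under a random block for animal; with 1 array left out they were 2 to 3. The jejunal median of -0.218 became -0.11 with the offset of 50 and -0.0128 with no filter, and ran from -0.293 to -0.203 with 1 array left out. Between SBS regions the 11 calls became 7 with no filter, 9 with median scaling, 9 with the offset of 50, 12 with the replicate block (animal) and 13 under the random block for animal, and 8 to 12 with 1 array left out; the median of -0.109 became -0.0119 with no filter and -0.176 at a detection p under 0.01, and ran from -0.131 to -0.0481. The interaction gave 0 calls under every alternative except without sham ileum replicate 1, where it gave 1; its median of -0.0755 became 0.0548 with median scaling and ran from -0.135 to -0.0614. With no filter more probes are tested; for the other changes the cause was not tested. By the codes no rat gave both a sham and an SBS array, so no paired analysis of resection was possible. In jejunum the groups share only 1 replicate number, and no replicate block was fitted. Signals near background limit the dim members: no bound or fold is firm where the lower group was undetected.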

Other observations

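Cxcl12 was singled out after its values were seen. In SBS ileum 1 to 4 it read 5.21, 7.08, 6.49 and 4.84, and the summed intensity of 5 stromal and endothelial markers on the same arrays was 132, 900, 523 and 71.2. In SBS jejunum 1 to 4 it read 5.05, 6.49, 5.83 and 5.55, beside sums of 205, 836, 424 and 232. In both regions the order of the arrays was the same for Cxcl12 and for the stromal sum, with SBS rats 37 and 38 highest. This order was not particular to stromal markers. The smooth muscle sums had it too, at 54.2, 359, 306 and 29.5 in SBS ileum and 67.7, 403, 177 and 136 in SBS jejunum. So did the macrophage and dendritic cell sums, at 311, 1100, 657 and 248 and at 192, 542, 499 and 310. No test was made of this.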
